A study of Mus musculus with 12 samples.

Results

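Cardiac ion channel and calcium handling genes were taken from a list of 39 genes, chosen by name and role with earlier results of these data known, of 22367 protein-coding genes on chromosomes 1 to 19, X and Y. BRG1 is an ATPase of the BAF chromatin remodeling complexes, which hold either BRG1 or the alternative ATPase BRM. BRG1 ChIPseq gives stretches of the genome, called regions here, where chromatin recovered with an anti-BRG1 antibody exceeds input DNA. The libraries used come from wild-type mouse embryonic stem cells (strain W4/129S6) that were differentiated to cardiac precursors (CPs) through embryoid bodies with VEGF, activin and BMP4 and then in monolayers with FGFs. Chromatin was crosslinked, digested with MNase and precipitated in 2 BRG1 libraries, which with 1 input library stand behind a single list of regions, while 9 further libraries (BAF170 knockout CPs, and wild-type, BAF170 knockout and BAF60c knockout cardiomyocytes) were not used. The list gives positions only, so that no value has an error between replicates, the depth is unknown, and for a gene without a region no binding and binding too weak for the list cannot be told apart. The list is named for CPs, but its row count and its count of distinct positions coincide with the counts of sites the study gives for CPs and for cardiomyocytes, respectively. Whether it is purely a CP list, or a mixture with or a list of cardiomyocyte sites, could not be settled from it, and CP is used below as the name it carries. The labelled cell type could not be checked against the expression of markers.

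The heartbeat rests on the ordered opening of such channels. Sodium channels start the action potential, L-type calcium channels hold its plateau and let in the calcium that opens the ryanodine receptor of the sarcoplasmic reticulum, and potassium channels end it. Pacemaker channels depolarize cells of the conduction system between beats, gap junctions carry the current from cell to cell, and pumps and exchangers clear calcium for relaxation.

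Of the 39 genes, 7 had a region within 1 kb either side of an annotated transcription start site (TSS), which is called the promoter here: Kcnd3, Kcnh2, Kcnk3, Cacna1c, Cacna2d1, Hcn4 and Ryr2. That was 17.9% of the members, where 11.9% of all protein-coding genes had such a region. A region lay in the body, from end to end of the annotated gene, of 11 members (28.2%), against 12.3% of all protein-coding genes. Within 100 kb of the gene, body included, 18 members (46.2%) had a region, against 40.3%. The other 21 had none. The 18 members were reached by 27 distinct regions, of which 7 lay at promoters of the members, 8 in bodies away from the member's promoters and 12 outside.

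**Figure D1:**
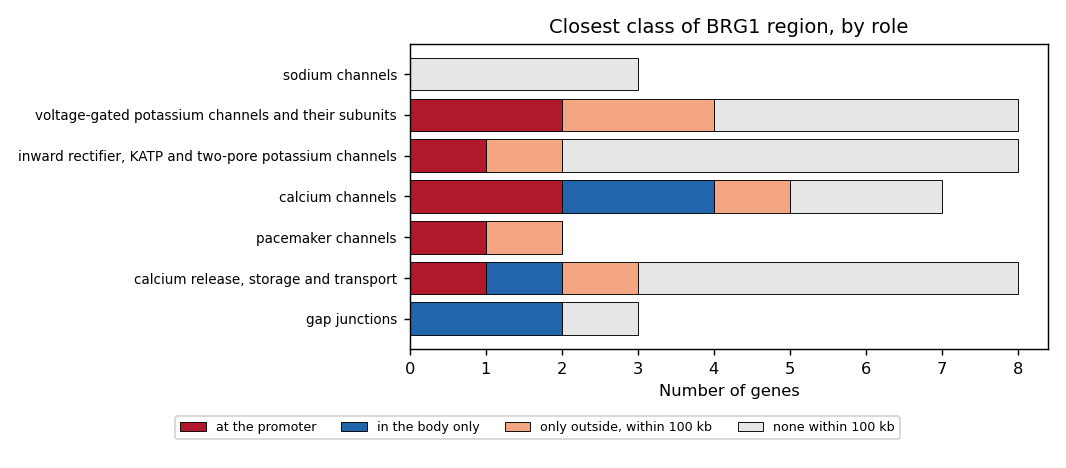
Number of genes in each role by the closest class of BRG1 region in CPs. All 3 sodium channel genes had no region within 100 kb, where genes of like promoter CpG count gave 1.25; both pacemaker channel genes had at least 1 (like genes 1.5), as did 5 of the 7 calcium channel genes (like genes 4.3).

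Promoters rich in the dinucleotide CpG carried regions far more often than others, and the members were therefore set beside genes of the same promoter CpG count. CpGs were counted in 2001 bp around the TSS, at the TSS with the highest count. Members had a median of 77 CpGs, with quartiles at 49 and 142, and all protein-coding genes a median of 66. Among other protein-coding genes whose count lay within 5 of that of each member, 21.0% had a promoter region, which corresponds to 8.19 genes where 7 were found, a ratio of 0.855. For the body, genes of the same CpG count gave 8.11 where 11 were found, a ratio of 1.36. For 100 kb they gave 19.4 where 18 were found, a ratio of 0.927. By role, the counts at promoters lay within 1 gene of those from genes of like CpG count. In bodies the gap junctions (2 of 3, against 0.671) differed from them by more than 1. Within 100 kb the inward rectifier group (2 of 8, against 4.01) and the sodium channels (0 of 3, against 1.25) did so. These ratios and counts describe the list and were not tested, and the number of compared genes ranged from 54 for Atp2a2 to 3035 for Pln.

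The members with a promoter region were mostly those with many CpGs. At 120 CpGs or more, 6 of 15 members (40.0%) had a promoter region, against 41.5% of 3725 protein-coding genes. Between 50 and 119 CpGs there was no such member among 13, while 11.4% of 9585 genes had one. Below 50 CpGs there was 1 member among 11, Cacna1c, against 0.298% of 9057 genes. CpG-rich promoters without a region were those of Kcnd2, Kcnj12, Cacna1d, Cacna1g, Cacna1h, Cacna2d2, Hcn2, Atp2a2 and Gjc1, which are 9 genes with 120 or more CpGs. Atp2a2, which encodes the pump that returns calcium to the sarcoplasmic reticulum, had the highest count of all members, 227 CpGs, and its nearest region lay 112 kb upstream, at the promoter of Ift81. Of the 54 genes of like CpG count, 64.8% had a promoter region.

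**Figure D2:**
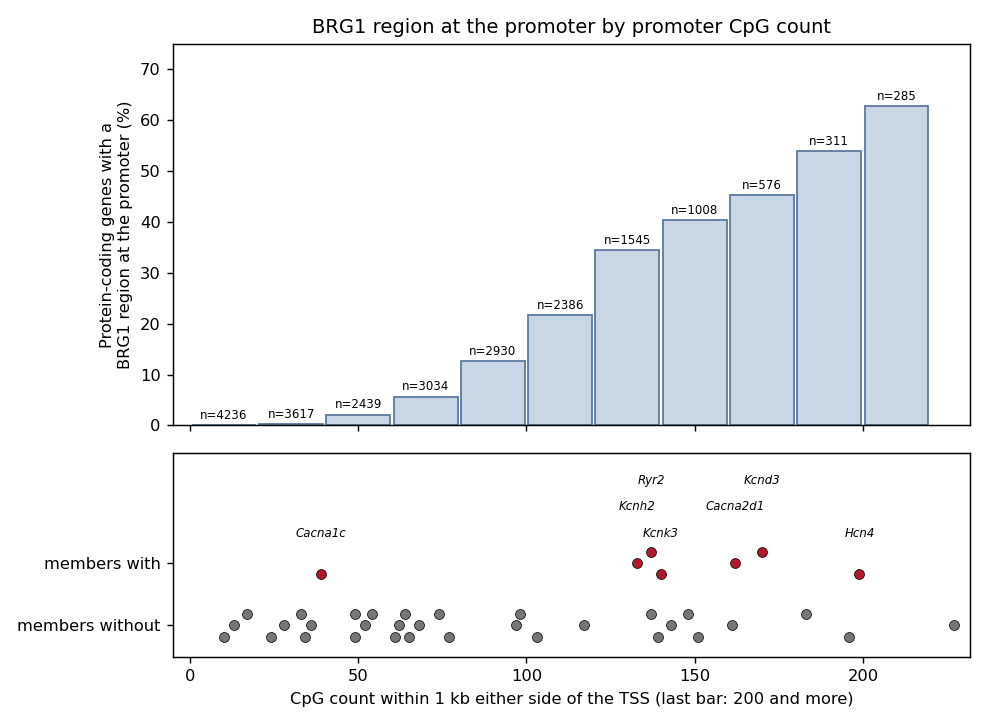
Upper panel, share of all protein-coding genes with a BRG1 region at the promoter, in percent, by the number of CpGs within 1 kb either side of the TSS. Lower panel, each member as a point at its own CpG count, with vertical offsets only to separate points. The share rises from 0.0236% below 20 CpGs to 62.8% at 200 and more, and 6 of the 7 members with a promoter region lie at 133 CpGs or more.

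Among voltage-gated potassium channels and their subunits, 2 of 8 genes had a promoter region. Kcnh2, which encodes the channel of the rapid delayed rectifier current, had the widest one of all members. It was 1560 bp wide, on chromosome 5 of mm9 from 23857106 to 23858665, was listed on 2 rows and spanned the first of 5 TSS positions of the gene, with its midpoint 0.464 kb upstream. Its promoter had 133 CpGs, and 39.1% of genes of like count had a region there. The 300 bp just upstream of that TSS, chr5:23857423-23857722 on the minus strand, are shown as an example of a CpG-rich promoter under a region, with the word GGGCGG (a binding word of SP1-type factors) in capitals.

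Kcnh2: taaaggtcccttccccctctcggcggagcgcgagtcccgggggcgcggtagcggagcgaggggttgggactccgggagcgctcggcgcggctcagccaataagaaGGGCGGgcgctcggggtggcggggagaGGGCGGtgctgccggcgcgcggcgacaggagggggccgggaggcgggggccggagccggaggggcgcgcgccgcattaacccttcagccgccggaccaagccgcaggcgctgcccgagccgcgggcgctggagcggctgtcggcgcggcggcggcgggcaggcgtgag

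Kcnd3, which encodes a channel of the transient outward current, had a region of 720 bp on chromosome 3 from 105255146 to 105255865. It spanned the first TSS positions of the gene, with 170 CpGs, and the annotated gene 1700095B22Rik has a promoter at the same place. Its paralogue Kcnd2, whose promoter holds 137 CpGs, had its nearest region 1140 kb from its TSS and 626 kb past the end of the gene. Distances to a nearest region are from the 5′-most TSS unless the gene end is named. Kcnip2, which encodes an accessory subunit of these channels, had 2 regions within 100 kb, and both lay at promoters of other genes, Mgea5 and Fgf8. Kcnq1, the slow delayed rectifier channel, had 1 region at the promoter of Cd81, 54.2 kb upstream, and another of 180 bp past its far end, 339 kb from the TSS and 15.0 kb from that of Cdkn1c. Kcna5, Kcne1 and Kcne2 had none within 100 kb. Kcne1 and Kcne2, which are neighbours on chromosome 16, shared their nearest region, at the promoter of Clic6.

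Of 8 genes for inward rectifier, KATP and tandem-pore potassium channels, Kcnk3 alone had a promoter region, in these data and with this annotation. Kcnk3 encodes a background potassium channel, and its region of 360 bp, on chromosome 5 from 30890806 to 30891165, lay 0.443 kb downstream of the TSS. Kcnj5, a subunit of the channel that acetylcholine opens in atrial and nodal cells, had a region of 220 bp on chromosome 9 from 32121666 to 32121885, which lay 483 bp past the end of the gene and 30046 bp from its TSS. This region held no CpG, and the nearest TSS of a protein-coding gene was that of Kcnj5 itself. Its partner Kcnj3 had the longest distance from TSS to nearest region of all members, 1690 kb. Kcnj2 and Kcnj12, which carry the inward rectifier current, lay 666 and 109 kb away. The region nearest to Kcnj2 was 140 bp wide, and no other protein-coding TSS was closer to it. Kcnj8 and Abcc9, which are neighbours and encode the pore and the sulfonylurea receptor of a KATP channel, shared a nearest region at the promoter of Etnk1, 596 and 465 kb away. Kcnj11, another KATP pore gene, lay 267 kb from a region.

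Calcium channel genes had regions at 2 of 7 promoters and in 3 of 7 bodies, where genes of like CpG count gave 2.43 and 2.39. Cacna2d1, which encodes an auxiliary subunit that carries the channel to the membrane, had a region of 480 bp on chromosome 5 from 15440326 to 15440805. It spanned the 3 TSS positions of the gene, lay in sequence with 81.0% G and C and held the word GGGCGG 12 times. Cacna1c, the pore of the L-type channel, had a region of another kind. It was 220 bp wide, with 53.2% G and C, and lay inside the neighbouring gene Dcp1b on chromosome 6 (119146586 to 119146805). The first of 4 TSS positions of Cacna1c was 0.447 kb away. Only 1 of 6 annotated transcripts of Cacna1c starts there, which is not in the consensus coding set (CCDS), and the next TSS lay 416 kb away. The window with most CpGs at Cacna1c held 39, and 0.573% of 1571 genes of like count had a promoter region. The whole region, chr6:119146586-119146805 on the minus strand, is shown beside the Kcnh2 sequence for its sparse CpGs, of which there are 5, in capitals.

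Cacna1c: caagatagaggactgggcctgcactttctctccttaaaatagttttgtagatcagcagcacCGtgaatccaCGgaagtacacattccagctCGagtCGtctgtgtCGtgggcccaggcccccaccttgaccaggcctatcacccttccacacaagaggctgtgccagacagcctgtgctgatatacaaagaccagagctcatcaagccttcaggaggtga

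Cacna1d, the other L-type pore gene on the list, had a region of 60 bp 4.13 kb upstream of its first TSS and inside Dcp1a, and none at its CpG-rich second TSS, which had 148 CpGs and lay 142 kb from that region. Cacna1g and Cacna1h encode T-type channels. In Cacna1g a region of 120 bp, on chromosome 11 from 94312486 to 94312605, lay in intron 9 of the transcript with most exons, 22.9 kb from the first TSS. Cacna1h, with 183 CpGs, had no region within 100 kb of the gene. In Cacna2d2 a region of 180 bp on chromosome 9 from 107366666 to 107366845 lay in intron 2. Cacnb2, the regulatory subunit, had its nearest region 108 kb upstream.

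The pacemaker channel gene Hcn4 had 2 wide regions. One, of 940 bp on chromosome 9 from 58670926 to 58671865, spanned the TSS, which had 199 CpGs. The other, of 920 bp from 58650766 to 58651685, lay 20.1 kb upstream, outside any annotated gene, and Hcn4 was the nearest protein-coding TSS. Both were listed on 2 rows, but their composition differed, with 76.2% G and C at the promoter and 49.0% upstream. Hcn2, the related gene, had a promoter of 161 CpGs and no region of its own. Its 2 regions within 100 kb were at the promoters of Shc2 and Palm, 79.2 kb upstream and 77.1 kb downstream.

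Ryr2, which encodes the calcium release channel of the sarcoplasmic reticulum, had 4 regions, more than any other member. The gene is 554 kb long, where members had a median of 48.7 kb, so that more sequence was searched than for most. Of genes of like CpG count, 40.3% had a promoter region. A region of 740 bp on chromosome 13 from 12198426 to 12199165 had its midpoint in exon 1, 0.416 kb downstream of the TSS. Further regions of 180 and 80 bp lay in intron 1, 49.4 and 78.7 kb downstream. The last, of 500 bp from 12225606 to 12226105, lay 26.6 kb upstream outside any annotated gene. Its composition, with 47.6% G and C, was close to that of the upstream region of Hcn4. Of the other 7 genes of calcium release, storage and transport, Jph2 had a region of 200 bp in intron 3 and another at the promoter of 3230401D17Rik, 21.3 kb upstream. Jph2 encodes a junctophilin, which holds the sarcoplasmic reticulum close to the cell membrane. Pln, the inhibitor of the calcium pump, had a promoter with 13 CpGs and a region of 380 bp 41.8 kb downstream of its TSS. Trdn and Casq2, whose proteins take part in calcium storage beside the ryanodine receptor, lay 1120 and 162 kb from a region. The pump inhibitor Sln lay 223 kb from a region, and the sodium-calcium exchanger gene Slc8a1 130 kb. To the last of these regions, of 100 bp, no protein-coding TSS was closer than that of Slc8a1.

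All 3 sodium channel genes lacked a region within 100 kb. Scn10a, an alpha subunit, had 24 CpGs at its promoter, and its nearest region, 1260 bp wide, lay 290 kb upstream. Scn3b and Scn4b, beta subunits, had 68 and 97 CpGs and lay 418 and 257 kb from a region. Of genes of like CpG count, 28.9%, 43.5% and 52.2% had a region within 100 kb, and 0.181%, 4.59% and 16.0% had one at the promoter.

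Of the 3 gap junction members, Gja1 and Gja5 had regions in introns, where genes of like CpG count gave 0.671 with a region in the body. None had one at a promoter, where such genes gave 0.669. The lack at promoters does not extend to the whole family, as seen in genes that are not among the 39 and are named after their values were seen. Gja4 and Gjb2 had promoter regions 0.097 and 0.143 kb from the TSS, while Gjb6 and Gjd3 had none at the promoter. In Gja1, the main connexin of the ventricle, a region of 80 bp on chromosome 10 from 56098606 to 56098685 lay in intron 1, 1.54 kb downstream of the TSS and so just outside the promoter as defined here. With promoters of 2 kb either side of a TSS, it was the member that was added. In Gja5, the connexin of the atria and the fast conduction system, 2 regions of 180 and 220 bp on chromosome 3, from 96858366 and from 96866946, lay in intron 3 of 1 of 3 annotated transcripts. The nearest end of another transcript was 809 bp from the first of them, so that by those transcripts both lie past the gene. Gjc1, with 196 CpGs at its promoter, had its nearest region 127 kb away.

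**Figure D3:**
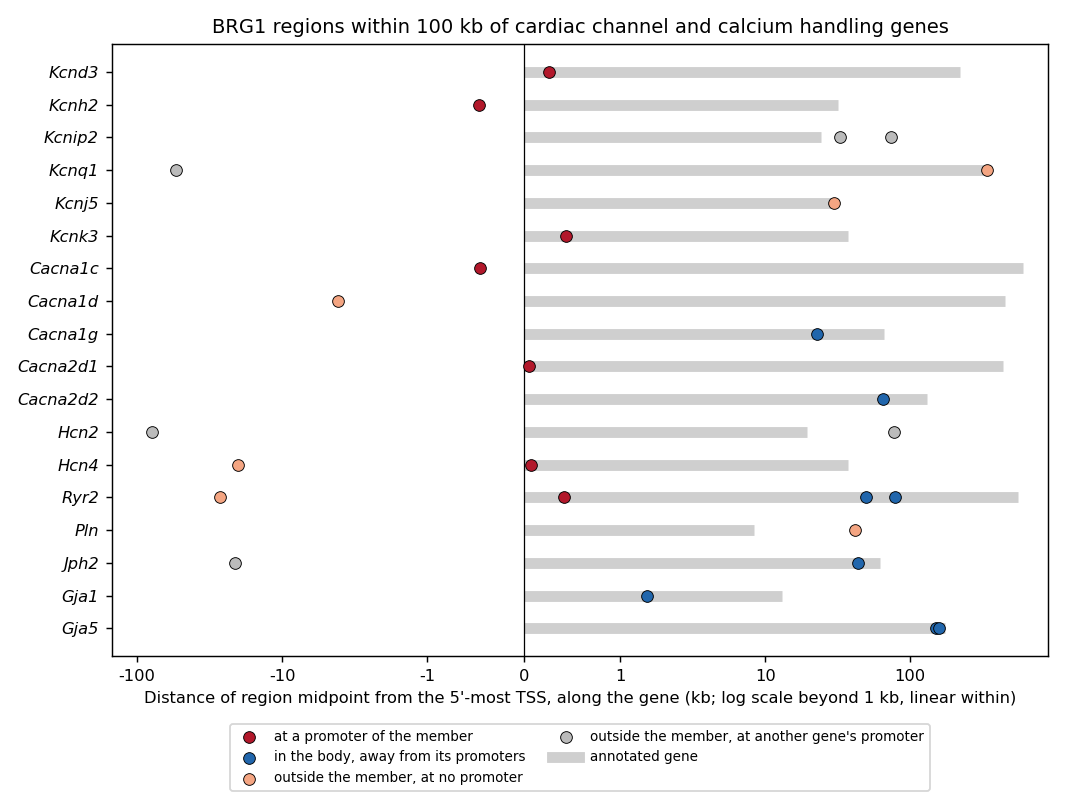
Midpoints of BRG1 regions within 100 kb of 18 members, by distance in kb from the 5′-most TSS along the gene (log scale beyond 1 kb either side, linear within), with the annotated gene as a grey bar. Regions at the member's promoter cluster near 0, while Ryr2 and Hcn4 also have regions upstream, 26.6 and 20.1 kb from the TSS.

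The regions in bodies away from the member's own promoters lay in 6 genes: Cacna1g, Cacna2d2, Ryr2, Jph2, Gja1 and Gja5. That is 15.4% of the members, against 1.85% of all protein-coding genes, and genes of like CpG count gave 0.962 where 6 were found. Long genes have more room for such a region, and the members were long, with a median of 48.7 kb against 15.4 kb for all protein-coding genes. Set beside genes whose length lay within 1.5 times of the member's, the number was 1.79, and with CpG count and length together it was 1.82, a ratio of 3.3. With both, as few as 8 genes were compared with a member. The difference was not tested, and no region in Gja5 remains with CCDS transcripts only. None of the 8 regions overlapped an annotated exon of the gene. They were narrow, with a median of 180 bp and none above 220 bp, and each was listed on a single row. Of all regions away from promoters, the median width was 200 bp and 11.5% were on more than 1 row.

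Regions at members' promoters were wider. Their median was 720 bp, with a range of 220 to 1560 bp, against 420 bp for all 2566 regions at promoters. The members' regions had a median of 73.2% G and C, and all promoter regions 74.1%. A TSS of the member lay inside 4 of the 7, those of Kcnd3, Kcnh2, Cacna2d1 and Hcn4. Of the 7, 3 (Hcn4, Kcnd3 and Kcnh2) were on more than 1 row, as were 26.9% of all promoter regions. What a repeated row stands for is not stated.

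**Figure D4:**
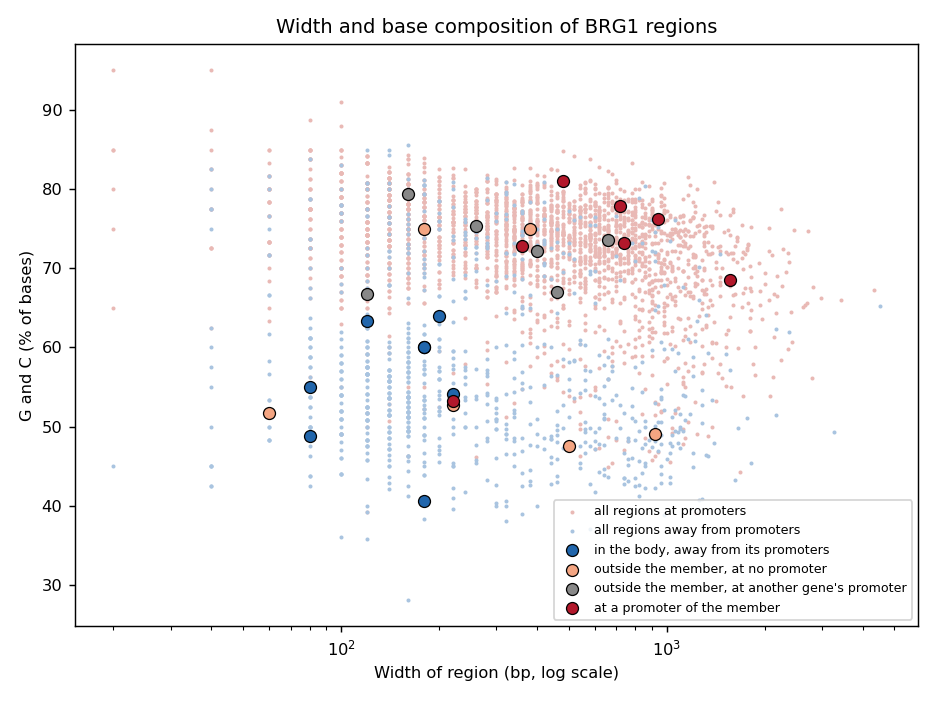
Width in bp (log scale) and share of G and C, in percent of bases, of all distinct BRG1 regions in CPs (small points) and of the 27 regions within 100 kb of members (large points, which overlie each other where values coincide). Promoter regions of members lie between 68.5% and 81.0% G and C except that of Cacna1c at 53.2%, and regions in bodies are at most 220 bp wide.

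Of the 12 regions that lay outside the members and within 100 kb, 6 (50.0%) lay at a promoter of another gene, while 73.9% of all distinct regions lay at a promoter. These shares are not of like sets. By definition the 12 leave out regions at the member's own promoter, while the 73.9% counts promoters of any gene. For 4 of the 12, the nearest protein-coding TSS was that of a member: Kcnj5, Cacna1d, Hcn4 and Ryr2. So 6 members, Kcnip2, Kcnq1, Kcnj5, Cacna1d, Hcn2 and Pln, had regions within 100 kb only outside the gene and its promoter.

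Binding words of cardiac transcription factors were searched on both strands in the 27 regions. AGATAA and TGATAAG stood for GATA factors, AGGTGTGA for T-box factors and TNAAGTG for NKX2-5, where N is any base. Both GATA words hold the bases GATAA but need a different base before them, so a single GATAA cannot match both. Away from all promoters, 4 of the 14 regions of members held AGATAA (28.6%), as did 24.9% of all 907 such regions. These 4 belonged to Hcn4, Ryr2, Kcnj5 and Cacna2d2. Wider regions held the word more often. It was found in 44.3% of 97 regions away from promoters with a width within 1.25 times of the Hcn4 region, in 37.6% of 101 for Ryr2, in 19.3% of 161 for Kcnj5 and in 18.5% of 216 for Cacna2d2. The T-box word occurred in the Kcnj5 region alone, and in 2.48% of the 161 regions of like width. TNAAGTG occurred in the Hcn4 region, as in 28.9% of regions of like width. TGATAAG, the TATA word TATAAA and the RE1 word of the repressor REST were in none of the 14. Of all 907 regions away from promoters, only 7.17%, 8.27% and 0.441% held them, so with 14 regions these absences say little about the members. At members' promoters, GGGCGG was in 6 of 7 regions, against 80.5% of all promoter regions. AGATAA was in 1 of the 7, that of Kcnh2, which is the widest, against 4.91% of all promoter regions of any width. A word is a match of letters and not a site of binding.

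The 3 widest of the 4 regions that lay away from all promoters and held a cardiac word are printed on the strand of the gene, from chr9:58651100-58651399 on the plus strand for Hcn4, chr13:12225721-12226020 on the minus strand for Ryr2 and chr9:32121666-32121885 on the minus strand for Kcnj5. The first and second are stretches of 300 bp, and the third is the whole region. Capitals mark the words AGATAA, AGGTGTGA and TNAAGTG, or their reverse complements TTATCT, TCACACCT and CACTTNA, and the T-box and the GATA word of the Kcnj5 region lie close together.

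Hcn4: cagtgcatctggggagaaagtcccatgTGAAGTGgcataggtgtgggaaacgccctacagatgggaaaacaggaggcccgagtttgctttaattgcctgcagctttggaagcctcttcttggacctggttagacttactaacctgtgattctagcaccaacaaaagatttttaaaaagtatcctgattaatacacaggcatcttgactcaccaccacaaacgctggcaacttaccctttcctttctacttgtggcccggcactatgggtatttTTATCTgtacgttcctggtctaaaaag

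Ryr2: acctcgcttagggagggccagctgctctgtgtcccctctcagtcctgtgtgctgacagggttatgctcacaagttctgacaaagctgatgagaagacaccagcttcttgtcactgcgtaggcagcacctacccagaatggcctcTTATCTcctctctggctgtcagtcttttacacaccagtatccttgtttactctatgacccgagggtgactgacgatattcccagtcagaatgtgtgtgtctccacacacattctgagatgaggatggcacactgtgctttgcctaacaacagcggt

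Kcnj5: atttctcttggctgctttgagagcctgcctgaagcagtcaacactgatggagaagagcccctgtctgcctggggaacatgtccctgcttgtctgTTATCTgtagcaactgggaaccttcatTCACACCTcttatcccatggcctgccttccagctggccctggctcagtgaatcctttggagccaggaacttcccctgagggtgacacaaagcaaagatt

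Measured from the 5′-most TSS of a member to the middle of the closest region, the distances had a median of 112 kb and quartiles of 22.1 and 278 kb. For protein-coding genes the median was 174 kb, and the quartiles were 52.1 and 541 kb. The members are all autosomal, and for autosomal genes the median was 160 kb. By role, the median was 22.9 kb for calcium channels, 38.6 kb for pacemaker channels, 96.6 kb for voltage-gated potassium channels, 121 kb for calcium release and transport, 127 kb for gap junctions, 290 kb for sodium channels and 366 kb for the inward rectifier group. The ranges of neighbouring roles overlap, apart from sodium channels, whose range of 257 to 418 kb lies above those of pacemaker channels and gap junctions. Roles also differed in CpG count, with medians of 143 for calcium channels and 180 for pacemaker channels, 68 for sodium channels, 75.5 for the inward rectifier group and 33.5 for calcium release and transport. The part of CpG count in the distances was not tested.

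**Figure D5:**
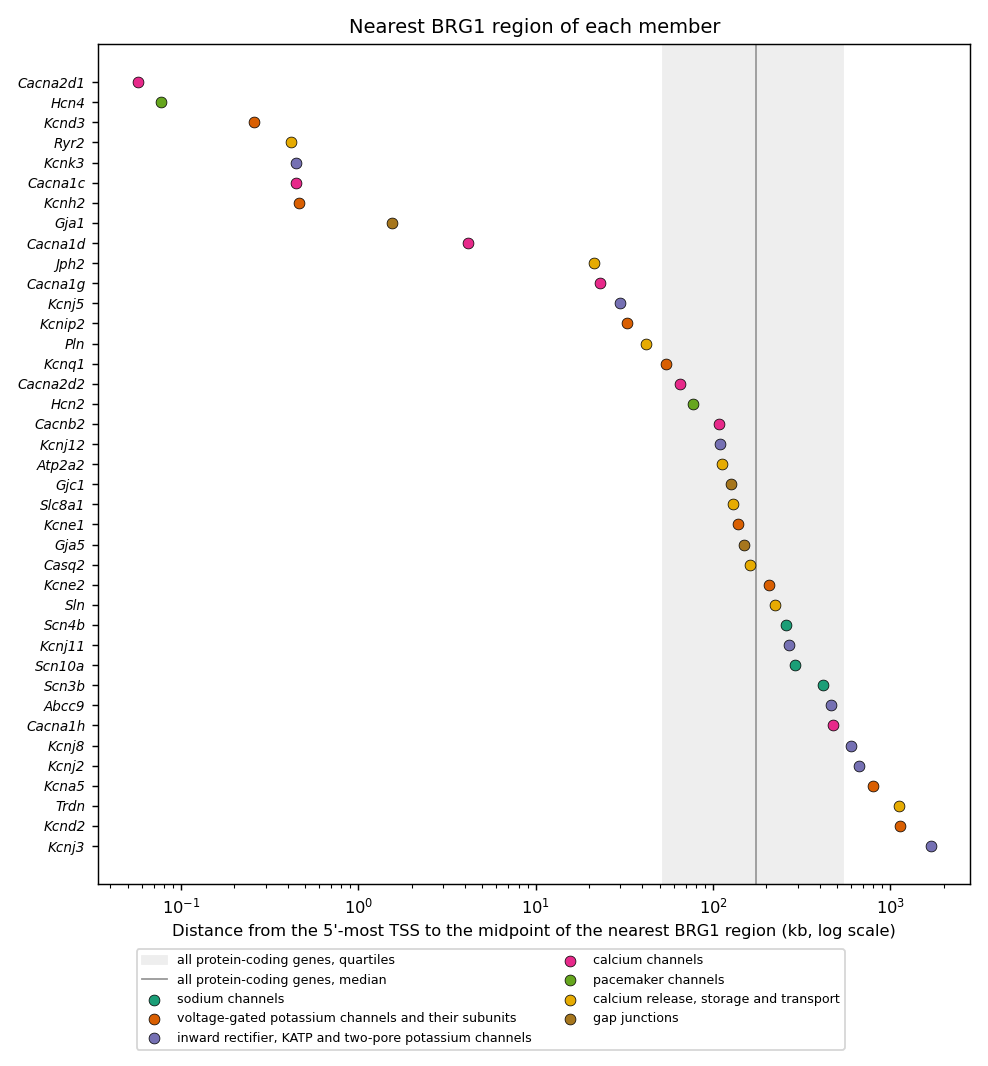
Distance in kb (log scale) from the 5′-most TSS of each member to the midpoint of the nearest BRG1 region, coloured by role, with the median (line) and quartiles (band) of all protein-coding genes. The order runs from Cacna2d1 at 0.057 kb to Kcnj3 at 1690 kb, and 7 members lie below 1 kb.

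A second list of 81 other channel, calcium handling and related genes was counted in the same way. Of these, 18 had a promoter region (22.2%) where genes of like CpG count gave 16.9, and 44 had one within 100 kb (54.3%) where they gave 42.1. In bodies away from the gene's promoters, 3 of the 81 had a region (3.7%), where genes of like CpG count gave 2.04.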

How the data were processed

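BRG1 ChIPseq of wild-type CPs was analysed. Per the authors' methods, reads were trimmed (fastq-mcf), mapped with Bowtie to the mm9 assembly and kept above a minimum mapping quality, and bins were tested against input DNA as background. Versions and the way of combining the 2 ChIP libraries are not given in the sources used here. The deposited file used here gives positions (chromosome, start and end in bp) without height, fold or P-value. The list had 4791 rows and 3473 distinct regions, and each distinct region was counted once. These coincide with the numbers of CP and of cardiomyocyte sites, respectively, that the study gives, so the lists may have been mixed or merged; the list was taken as that of CPs, as it is named. Starts were read as counted from 0 and are printed counted from 1.

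Regions were compared with the mm9 sequence and GENCODE release M1 in Python 3.11.15 (pysam 0.24.0, scipy 1.17.1, pandas 2.3.3, numpy 2.4.6). Plots used matplotlib 3.10.9. An overlap of 1 bp was enough. The TSS of each annotated transcript was used. The overlap functions were tested on simulated regions. The members, roles, second list and words were chosen with earlier results of these data known. All members are named; sequences are the widest and the most CpG-poor promoter region and the 3 widest regions away from promoters with a cardiac word. With 1 list, no test was run.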

Additional observations from a re-analysis of the deposited data

How the results depend on the processing

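The 7 counts, ratios and distances were recomputed in 64 ways, 12 of them chosen after seeing the data (CCDS transcripts, protein-coding transcripts, autosomal genes, and length with CpG count for bodies away from promoters). Under 51 of them, counts stayed within a factor of 1.5 and ratios to genes of like CpG count within a 95% Wilson interval and on the same side of 1, and the median distance was 109 or 112 kb. Regions on more than 1 row alone left 3 members at promoters, 3 in bodies and 4 within 100 kb. The ratios were then 0.981 at promoters, 0.998 in bodies and 0.636 within 100 kb. The last of these, 0.927 before, still lay within its interval and so counts among the 51. Without CpG matching the ratios were 1.51 at promoters, 2.3 in bodies and 1.14 within 100 kb. Regions of at least 200 bp gave a promoter ratio of 1.03 and a median distance of 223 kb, and a limit of 50 kb gave a ratio of 1.16. Bodies without promoter windows left 6 members, at a ratio of 6.24, or 3.3 with length. The causes were not tested. Leaving out a library and a stricter threshold of the authors could not be tried with positions only. No paired analysis was possible because the file used here gives positions, with no separate value for either ChIP library. Depth is unknown, so a missing region does not show missing BRG1.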
